A study of Oryza sativa with 12 samples.

Results

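Of the rice loci measured in germinating seed, 133 stood higher in salt than in water in one genotype and lower in salt in the other. Loci with an Os ID entered where their mean level reached 5 FPKM (fragments per kilobase, scaled to library depth) in at least 1 group. A locus was taken where mean log2(FPKM + 1) was at least 0.6 higher in salt than in water in one genotype and at least 0.6 lower in the other. Of 30252 Os IDs, 14203 reached the level, and 133 met the rule. At 110 of them the level was higher in salt in the wild type and lower in salt in the mutant, and at 23 the order was reversed. The loci were chosen by their measured salt differences, so these are given below as a description without a test.

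The 12 libraries came from total RNA of seeds kept on wet filter paper. The genotypes were Zhonghua 11 (ZH11), labelled wild type (WT), and an OsMFT1 knockout (osmft1), and each was given water or 300 mM NaCl, with 3 libraries for every combination. All seeds were surface-sterilised and held at 28 °C with 15 h of light a day. The labels give neither the allele and parent variety of the mutant, nor the number of mutant lines, nor a sampling time. They do not say that the 3 libraries of a group came from separate seed lots, and p-values measure only the spread between these libraries.

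MOTHER OF FT AND TFL1 proteins are relatives of the flowering signal FT and are known for their role in seeds. In Arabidopsis, MFT links abscisic acid, which keeps a seed dormant, with gibberellin, which promotes germination. Salt delays germination by holding back water uptake and by adding sodium. A germinating seed meanwhile runs down stored reserves and turns on genes of the growing embryo.

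Each library held 14379728 to 15688593 counted reads, as recovered from the steps between low values, and the 133 loci held 269 to 54597 reads each over all 12 libraries. The files give IDs without gene names, and none of the 133 IDs was found in the gene table used here. The loci are therefore called by ID, no role is given to them, and neither the seed tissue nor the loss of OsMFT1 was checked against a gene. In a whole seed, fewer cells of a type and less RNA per cell cannot be told apart. Some libraries stand apart from the rest of their group at these loci, as described below.

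Os01g0762500 stood higher in salt than in water in WT, from a low base, and lower in salt in osmft1, from a high one. In WT it measured 2.96, 2.96 and 3.95 FPKM in water and 5.42, 10.7 and 6.17 FPKM in salt. In osmft1 it measured 88.7, 43.3 and 33.7 FPKM in water and 15.6, 14.4 and 20.9 FPKM in salt. The water and salt libraries did not overlap in either genotype, which was a condition for naming a locus here. The lowest osmft1 library lay above the highest WT library. The salt difference in log2(FPKM + 1) was 0.93 ± 0.32 in WT and -1.54 ± 0.32 in osmft1 (SE, n = 3 libraries a group). The level in osmft1 water was led by replicate 1, at 88.7 FPKM.

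Os10g0400200 had nearly the same course on another chromosome. It measured 3.22, 2.04 and 2.17 FPKM in WT water and 5.21, 7.70 and 4.12 FPKM in WT salt. In osmft1 it measured 65.8, 39.0 and 27.9 FPKM in water and 13.5, 11.2 and 15.4 FPKM in salt. Its libraries did not overlap between water and salt in either genotype, and all osmft1 libraries exceeded all WT libraries. The salt differences were 0.92 ± 0.28 in WT and -1.58 ± 0.28 in osmft1 (SE).

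In the other direction, Os10g0376900 measured 5.55, 8.68 and 6.96 FPKM in WT water and 3.76, 1.10 and 4.65 FPKM in WT salt. In osmft1 it stood at 3.25, 2.85 and 2.32 FPKM in water and at 9.72, 4.92 and 7.57 FPKM in salt. Here the mutant in water was close to the wild type in salt, and the mutant in salt was close to the wild type in water. The salt differences were -1.05 ± 0.34 in WT and 1.11 ± 0.34 in osmft1 (SE).

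Os06g0656300 had salt differences of the same signs at a higher level, but here all WT water libraries lay above all osmft1 salt libraries. It measured 45.1, 51.2 and 39.1 FPKM in WT water and 19.2, 22.6 and 27.6 FPKM in WT salt. In osmft1 it measured 11.7, 17.3 and 17.7 FPKM in water and 30.4, 29.5 and 37.2 FPKM in salt. The libraries of water and salt did not overlap in either genotype. The salt differences were -0.94 ± 0.18 in WT and 1.02 ± 0.18 in osmft1 (SE).

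**Figure D1:**
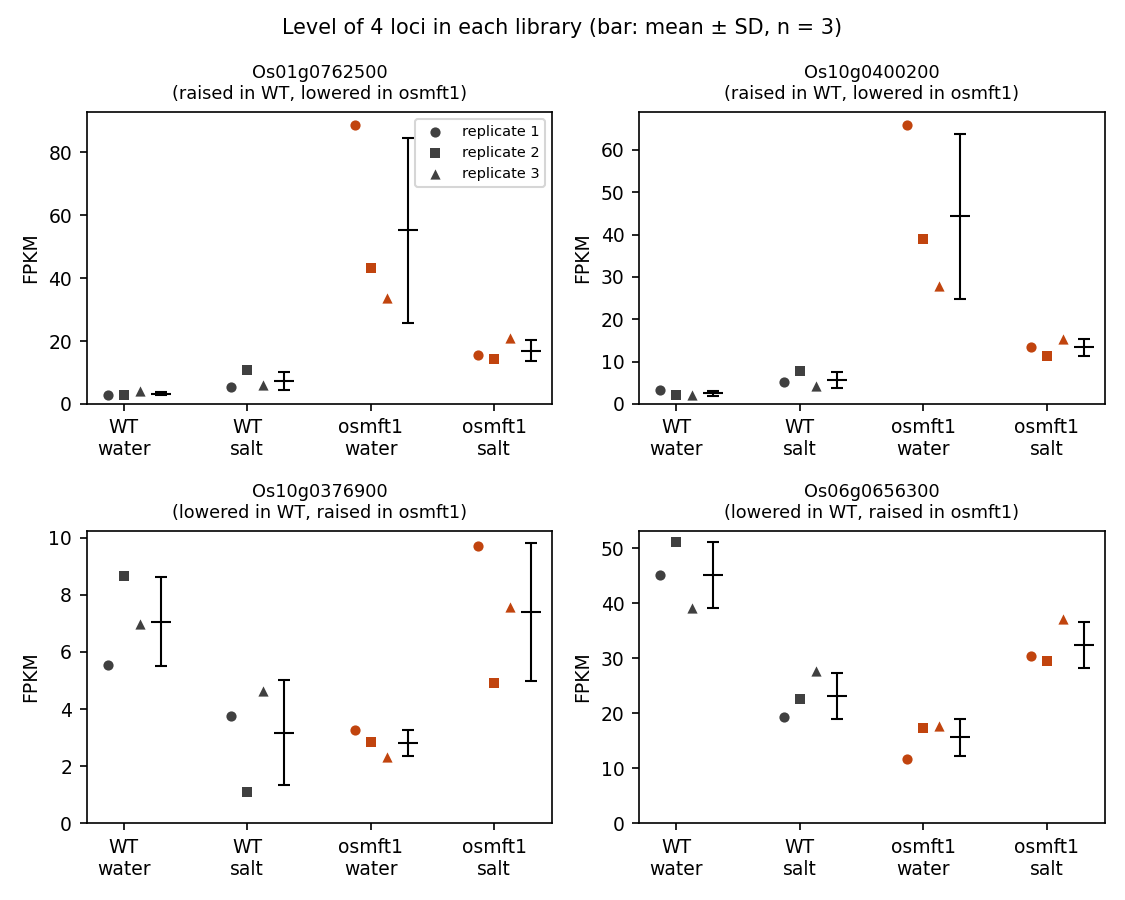
FPKM (vertical axis) of 4 loci in each of the 12 libraries by group, with the mean ± SD of 3 libraries beside the points (circle, square and triangle for replicates 1, 2 and 3). Os01g0762500 reached 88.7 FPKM in osmft1 water replicate 1 and stayed under 11 FPKM in all WT libraries, and the lower pair of loci crossed over between the genotypes.

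The 110 loci higher with salt in WT and lower with salt in osmft1 had modest salt differences. In WT they spanned 0.60 to 2.22 (median 0.76) and in osmft1 -2.22 to -0.60 (median -0.78). Adding 1 before the logarithm makes these values too small for loci of low level. Over the 14203 loci past the level filter the medians were 0.05 in WT and -0.07 in osmft1. The limma fit called 77 of the 110 higher with salt in WT, beside 27.7% of all 22017 tested IDs, and 68 lower with salt in osmft1, beside 25.5%. Both calls were made at 47 loci, beside 0.586% of tested IDs, and the interaction was called at 103, beside 6.12% of tested IDs in that direction. With 1 library left out the interaction was called at 41 to 106 of them. The rule used these contrasts, so nothing is read from these counts. All 133 loci passed the filter on low values that tested IDs had to meet.

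At 43 of the 110 loci the water and salt libraries did not overlap in either genotype, as was so for 1.36% of the 14203 loci in this direction. The WT libraries of water and salt lay apart at 101 of the 110, and those of osmft1 at 50. Over the 14203 loci the WT libraries lay apart with salt higher at 37.2%, and the osmft1 libraries with salt lower at 32.3%. The members just inside the threshold had salt differences of 0.6014 and -1.0061, and of 0.6017 and -1.1394, in WT and osmft1. The loci just outside had 0.6118 and -0.5986, and 0.8343 and -0.5964.

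**Figure D2:**
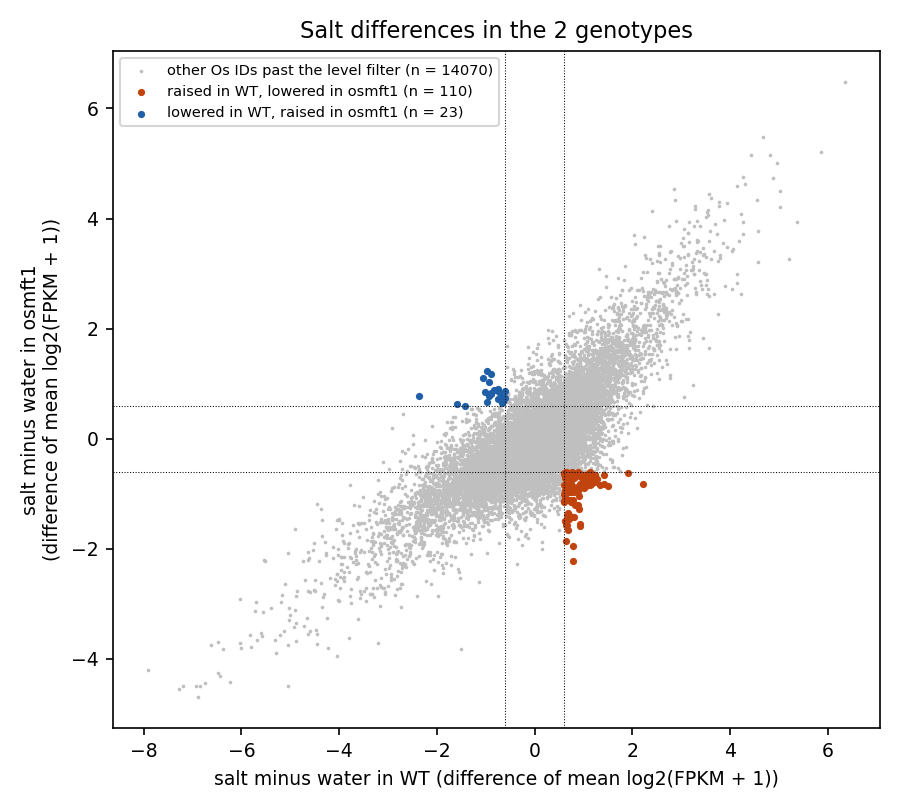
Salt minus water difference of mean log2(FPKM + 1) in osmft1 (vertical) against that in WT (horizontal) for 14203 Os loci, with dotted lines at 0.6 and -0.6. The 110 loci of the first direction and the 23 of the second lie in opposite corners, most of them close to the dotted lines.

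These 110 loci were at their lowest in WT water and at their highest in osmft1 water. Osmft1 water was the highest group at 108 of them, and WT water the lowest at 107. The median of the group means was 3.28 FPKM in WT water, 6.60 FPKM in WT salt, 12.5 FPKM in osmft1 water and 6.17 FPKM in osmft1 salt. The genotypes were thus far apart in water and near each other in salt. In water osmft1 exceeded WT by 0.89 to 4.11 in log2(FPKM + 1) (median 1.5), and all 3 osmft1 libraries lay above all 3 WT libraries at 109 of 110 loci, as they did at 33.3% of loci past the level filter. In salt the difference ran from -1.22 to 1.89 with a median of -0.16. The limma fit called all 110 higher in osmft1 in water, beside 20.0% of tested IDs, and 6 higher and 0 lower in salt, beside 4.33% and 1.12%. The rule sets how far the water and salt differences lie apart, and these counts are a description.

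The genotype difference averaged over water and salt is not fixed by the salt differences, but the level filter bears on it. Of the 110 loci, 33 reached 5 FPKM in osmft1 groups only, 29 of them in osmft1 water only, and 1 reached it in WT groups only. Counts of this average are therefore a description. It was above 0 at all 110 loci, from 0.05 to 3, with a median of 0.64 against 0.11 over all tested IDs. The limma fit called 60 of the 110 higher in osmft1 on this average and 0 lower, at an adjusted p under 0.05, and 40 of the 77 that also reached 5 FPKM in a WT group. Among all tested IDs 13.3% were called higher and 5.21% lower. At an unadjusted p under 0.05 the counts were 95 higher and 0 lower, beside 25.5% and 9.63% of tested IDs. Voom on the recovered reads called 77 higher and 0 lower, beside 15.0% and 5.0%. Os01g0762500 and Os10g0400200 reached 5 FPKM in WT salt as well. Os01g0762500 was higher by 2.36 ± 0.23 (SE; adjusted p = 0.000106 in limma) and Os10g0400200 by 2.38 ± 0.20 (SE; adjusted p = 5.52e-05 in limma).

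For comparison, 377 other loci had an interaction of at most -1.2 without opposite salt differences past the threshold. Of these, 164 (43.5%) were called higher in osmft1 on the average and 5 lower, and their median was 0.51. The share among the 110 loci was 54.5%, and the difference between these shares was not tested. The average is separate from the salt differences only where groups vary alike. The median SD between replicates at the 110 loci was 0.43 in osmft1 water and 0.44 in osmft1 salt, against 0.30 in WT water and 0.18 in WT salt.

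The count of 60 changed with the libraries used, as did the 2928 higher calls over all tested IDs. Leaving out osmft1 water replicate 1 gave 35, and leaving out WT salt replicate 1 gave 33. Over all tested IDs these settings gave 1701 and 1809. At the 110 loci the count was 37 when either osmft1 salt replicate 2 or WT water replicate 3 was left out. Over all tested IDs it was then 1741 and 1773. Median-ratio scaling moved the median average difference of all tested IDs from 0.11 to -0.02 and turned the share of higher among all calls from 71.9% to 39.6%. With that scaling 108 of the 110 loci were still above 0, and 47 were called higher, beside 1329 of all tested IDs. With upper-quartile scaling the share of higher calls was 54.8%, and 56 of the 110 were called higher, beside 1897 of all tested IDs.

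**Figure D3:**
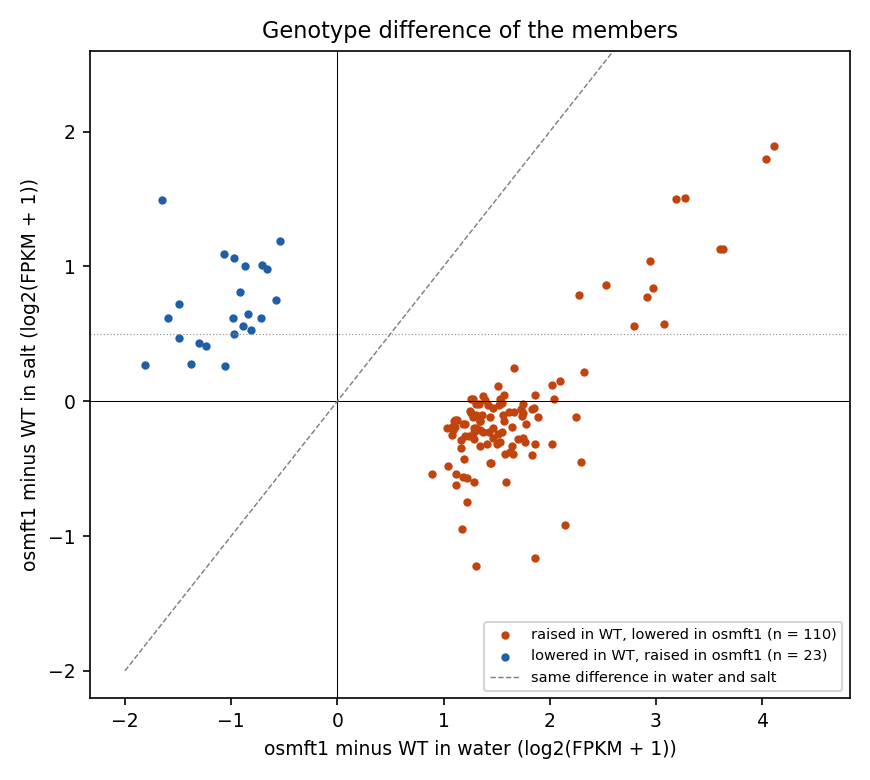
Osmft1 minus WT difference in log2(FPKM + 1) in salt (vertical) against that in water (horizontal) for the 133 loci, with a dashed line where both are equal and a dotted line at 0.5. The 110 loci lie to the right at 0.89 to 4.11 in water, and 13 of them stand apart above the dotted line.

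The 110 loci fell into unequal portions by the osmft1 minus WT difference in salt. A portion of 13 loci stood at least 0.5 above WT in salt as well, from 0.56 to 1.89, while the highest of the other 97 stood at 0.25. The salt libraries of osmft1 lay above all those of WT at 9 of the 13 and at 0 of the other 97. The cut was made on the salt difference between genotypes, so nothing is read from these counts. In salt the fit called 6 of the 110 higher (5.5%), beside 4.33% of tested IDs. These 6 were all among the 13, so not all of the 13 were called. This division was made after the values were seen and carries no test. In water the 13 stood 2.28 to 4.11 above WT. Os01g0762500 and Os10g0400200 belong to the 13.

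The highest of the 13 was Os03g0766100, singled out here for its level. It measured 27.3, 36.5 and 24.7 FPKM in WT water and 39.5, 60.9 and 37.3 FPKM in WT salt. In osmft1 it measured 452.7, 251.2 and 213.0 FPKM in water and 132.6, 101.0 and 162.6 FPKM in salt. All osmft1 libraries lay above all WT libraries. Os07g0214600, singled out for the largest average difference, measured 5.22, 6.17 and 7.53 FPKM in WT water and 195.2, 120.4 and 82.1 FPKM in osmft1 water. In salt it measured 8.23, 16.4 and 8.16 FPKM in WT and 38.3, 24.7 and 73.2 FPKM in osmft1. It was higher in osmft1 by 3 on the average over treatments, the value it was singled out for. The salt differences of Os03g0766100 were 0.61 ± 0.29 in WT, near the threshold, and -1.15 ± 0.29 in osmft1 (SE). Those of Os07g0214600 were 0.65 ± 0.40 and -1.57 ± 0.40 (SE). With each of the 12 libraries left out in turn, they met the rule 9 and 10 times.

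The replicates ranked differently in the smaller and the larger portion. Osmft1 salt replicate 2 was the lowest of its group at 11 of the 13 loci, but the highest of its group at 93 of the other 97. WT salt replicate 2 was the highest of its group at 10 of the 13 and at 49 of the 97. Osmft1 water replicate 1 was the highest of its group at 13 of 13 and at 95 of 97. These libraries took part in the choice of the loci, so the ranks are a description. Over the 14203 loci past the level filter these libraries also had the highest medians of their groups. The medians, taken against each locus's mean, were 0.13 in osmft1 water replicate 1, 0.11 in osmft1 salt replicate 2 and -0.03 in WT salt replicate 2. The loci of the smaller portion were also shorter, with implied lengths of 574 to 1771 bases (median 647) against a median of 2688 bases in the others. Of the 13, 4 lay on chromosome 7, 3 on chromosome 2 and 2 on chromosome 5, as read from the IDs. Of the other 97, 6, 17 and 7 lay there. The 4 on chromosome 7 ran from Os07g0206500 to Os07g0220000 in ID order, and whether they share reads was not tested.

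The largest gap between the salt differences of the 110 was at Os10g0204400, a locus outside the 13 that was singled out for it. It measured 21.2, 18.7 and 10.7 FPKM in WT water and 87.8, 48.4 and 118.5 FPKM in WT salt. In osmft1 it measured 100, 77.4 and 54.2 FPKM in water and 42.0, 45.0 and 38.3 FPKM in salt. The ranges of WT in salt and osmft1 in water overlapped, and the salt differences were 2.22 ± 0.32 in WT and -0.83 ± 0.32 in osmft1 (SE). On the average over treatments it was not called (0.61 ± 0.23, SE; adjusted p = 0.0836 in limma).

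At the 23 loci of the other direction the genotypes changed places between water and salt. Their salt differences spanned -2.37 to -0.61 in WT (median -0.89) and 0.60 to 1.24 in osmft1 (median 0.82). The limma fit called 16 of them lower with salt in WT, beside 28.2% of tested IDs, and 15 higher with salt in osmft1, beside 20.5%. Both calls were made at 12 loci, beside 0.263% of tested IDs, and the interaction was called at 21, beside 6.92%. The water and salt libraries did not overlap in either genotype at 15 of the 23, beside 0.746% of the 14203 loci. As the rule used these contrasts, nothing is read from the counts. The members just inside the threshold had -1.4329 and 0.6036, and -0.6091 and 0.7333, and the loci just outside had -0.7016 and 0.5723, and -0.5713 and 0.6628.

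WT water was the highest group at 17 of the 23 loci and osmft1 salt at 6. Osmft1 water was the lowest group at 15 and WT salt at 8. The median of the group means was 23.0 FPKM in WT water, 12.6 FPKM in WT salt, 8.80 FPKM in osmft1 water and 16 FPKM in osmft1 salt. In water osmft1 lay 0.54 to 1.81 below WT in log2(FPKM + 1), with a median difference of -0.97, and in salt 0.26 to 1.49 above it, with a median of 0.62. The fit called 17 lower in osmft1 in water, beside 10.4% of tested IDs, and 4 higher in salt, beside 4.33%. As with the first direction, the rule bears on these counts.

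On the average over treatments these loci gave few calls. The limma fit called 2 of the 23 lower in osmft1 and 0 higher, at an adjusted p under 0.05, beside 5.21% lower and 13.3% higher among all tested IDs. At an unadjusted p under 0.05 there were 7 lower and 0 higher, beside 9.63% and 25.5% of tested IDs. Voom called 2 lower and 0 higher, beside 5.0% and 15.0%. The 2 loci were Os06g0656300 (-0.51 ± 0.13, SE; adjusted p = 0.0202 in limma) and Os02g0578000 (-0.77 ± 0.24, SE), which the naming rule did not choose. The average difference of Os10g0376900 was 0.01 ± 0.24 (SE; adjusted p = 0.986 in limma). There was 1 call when any osmft1 water library, osmft1 salt replicate 3, WT water replicate 2, or WT salt replicate 2 or 3 was left out, and 4 when WT water replicate 1 was. Over all tested IDs the lower calls numbered 791 to 1067 in the settings with 1 call and 1070 in that with 4. Median-ratio and upper-quartile scaling gave 5 each, beside 2025 and 1564 lower calls over all tested IDs, against 1146 in the main fit.

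Os01g0124100 had the highest level of the 23 and was singled out for it. It measured 243.4, 266.6 and 257.9 FPKM in WT water and 154.4, 124.5 and 134.2 FPKM in WT salt. In osmft1 it measured 141.4, 131.1 and 132.7 FPKM in water and 203.6, 238.0 and 292.5 FPKM in salt. The replicates of each group lay close together in water, and no library of water overlapped one of salt within a genotype. Os03g0678800, singled out for the lowest salt difference in WT, measured 9.78, 17.8 and 14.0 FPKM in WT water and 1.5, 2.38 and 1.60 FPKM in WT salt. In osmft1 it stood at 3.18, 3.23 and 4.48 FPKM in water and at 34.7, 2.51 and 2.89 FPKM in salt. Its place among the 23 therefore came from osmft1 salt replicate 1, and the other osmft1 salt libraries lay below all osmft1 water libraries.

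At the member loci, libraries of 1 group differed among themselves along the axis that the rule used. The rule chose the loci in these same libraries, so a locus can enter because a single library stands out. The medians and ranks of libraries at these loci are therefore a description. Against each locus's mean over the 12 libraries, the 110 loci stood at medians of 1.2, 0.56 and 0.42 in osmft1 water replicates 1, 2 and 3. In osmft1 salt they stood at -0.32, 0.38 and -0.31, so replicate 2 lay close to osmft1 water replicate 3. In WT water they stood at -0.51, -0.68 and -1.11, and in WT salt at -0.01, 0.14 and 0.14. Over the 14203 loci past the level filter the library medians stayed between -0.15 (WT water replicate 3) and 0.13 (osmft1 water replicate 1). Osmft1 water replicate 1 was the highest of its group at 108 of the 110 loci, and WT water replicate 3 the lowest of its group at 86. At the 23 loci the libraries of osmft1 water lay close together, at -0.49, -0.49 and -0.46, and WT water replicate 2 stood out at 1.04 against 0.30 and 0.31.

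**Figure D4:**
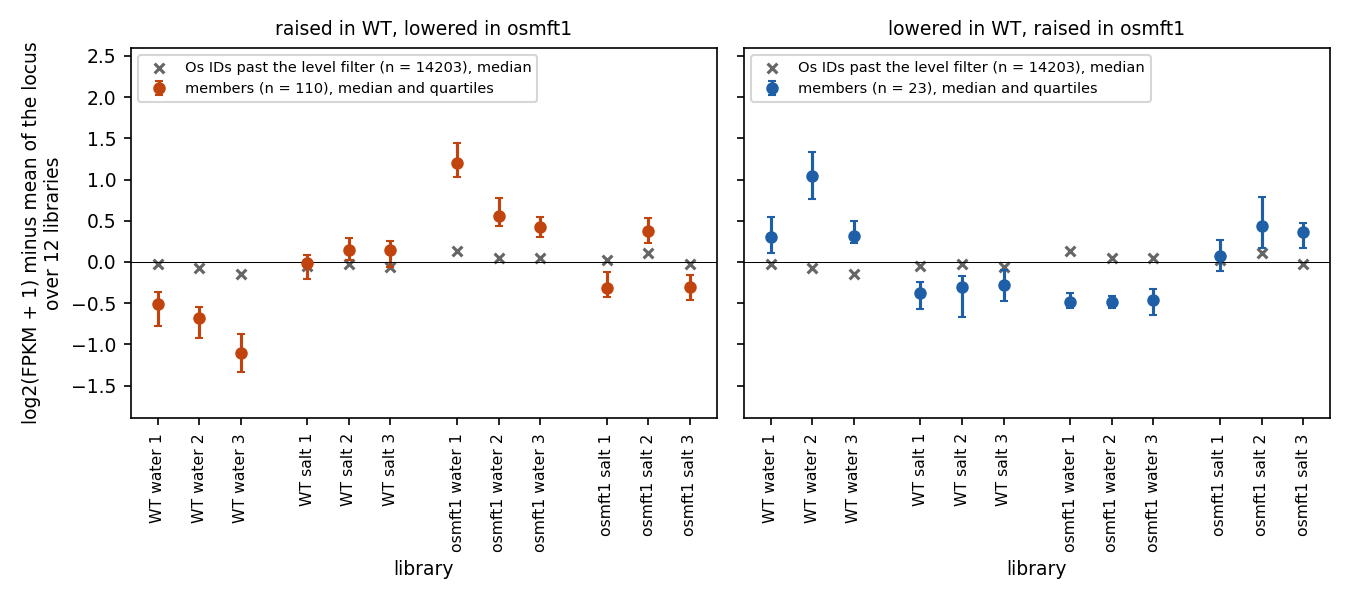
Median and quartiles over the member loci of log2(FPKM + 1) minus the locus mean over 12 libraries (vertical), by library, for the 110 loci (left) and the 23 loci (right). Crosses mark the median over 14203 loci. Osmft1 water replicate 1 (1.2) and osmft1 salt replicate 2 (0.38) stand out from their groups on the left, and WT water replicate 2 (1.04) on the right.

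How many loci met the rule depended on single libraries. With 1 library left out in turn, the first direction held 39 to 196 loci and the second 13 to 39. The first direction held 39 without osmft1 water replicate 1, all of them among the 110. Leaving out WT water replicate 3 gave 70 and leaving out osmft1 salt replicate 3 gave 71. Leaving out osmft1 water replicate 3 gave 182, and leaving out osmft1 salt replicate 2 gave 196. The second direction held 13 when WT water replicate 2 was left out and 39 when WT water replicate 1 was. Without both osmft1 libraries numbered 1 the counts were 34, of which 32 were among the 110, and 32, of which 20 were among the 23.

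In the first direction 11 loci met the rule whichever library was left out. Their salt differences with all libraries spanned 0.75 to 2.22 in WT and -1.58 to -0.82 in osmft1, and 8 were among the 60 called higher in osmft1 on the average over treatments. Os01g0762500, Os10g0400200 and Os10g0204400 were among them. In the second direction 7 of the 23 met the rule every time, Os10g0376900, Os06g0656300 and Os01g0124100 among them.

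**Figure D5:**
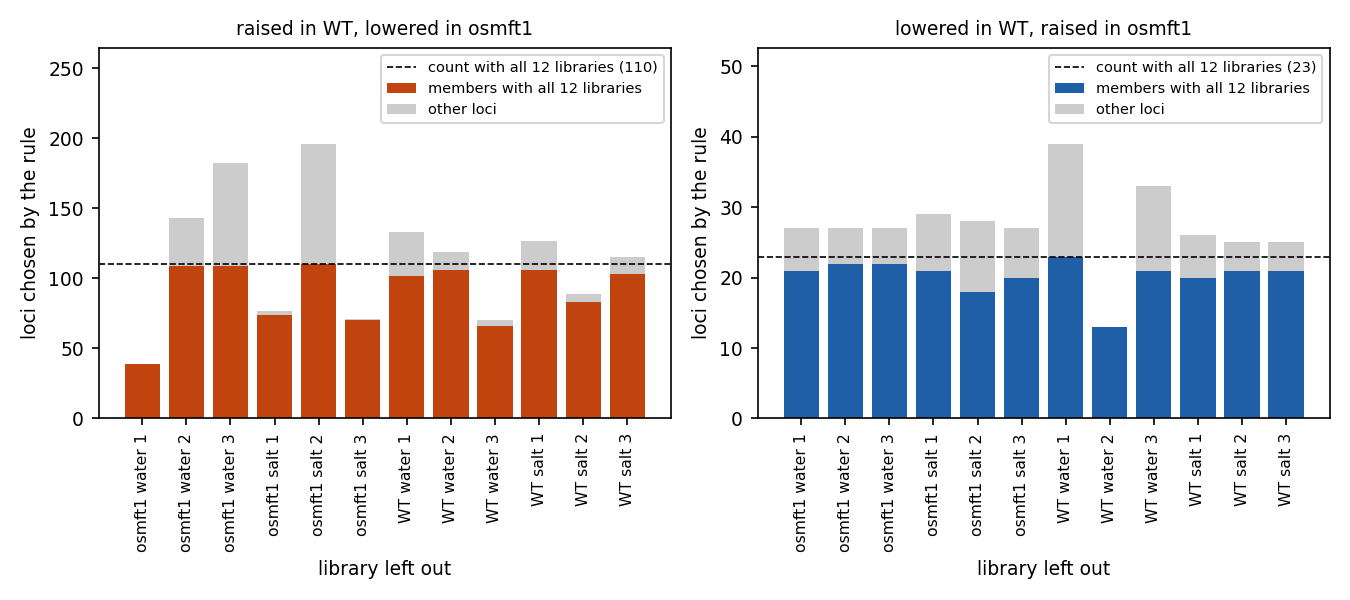
Number of loci that met the rule (vertical, bars from 0) with each of the 12 libraries left out in turn, for the first direction (left) and the second (right). Coloured parts are loci that also met it with all libraries, and the dashed lines mark 110 and 23. Leaving out osmft1 water replicate 1 leaves 39 on the left, and leaving out WT water replicate 2 leaves 13 on the right.

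The same measure was then read in libraries that had no part in the choice. Loci were chosen anew with 8 libraries, and the signs of the salt differences were read in the 4 libraries of the remaining replicate number. In the first direction 40 of 47 loci (85.1%) chosen without replicate 1 had the chosen signs in both genotypes there, and 83 of 94 (88.3%) chosen without replicate 3. Over all loci past the filter the shares were 17.2% and 17.8%. Of 237 loci chosen without replicate 2, 87 (36.7%) had both signs in replicate 2, beside 10% of all loci. There the WT sign was met at 227 loci and the osmft1 sign at 93. In the second direction 31 of 54 (57.4%), 15 of 30 (50%) and 26 of 47 (55.3%) had both signs in the replicate left out, beside 11.7%, 10.9% and 9.26% of all loci. The loci chosen this way were only in part those described above. In the first direction 29 of 47, 87 of 237 and 64 of 94 (without replicates 1, 2 and 3) were among the 110. In the second, 19 of 54, 10 of 30 and 20 of 47 were among the 23, in the same order. Each share counts loci read in the same 4 libraries, and such loci are not replicates of each other. The numbers of different groups are not pairs, so these shares are a description.

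The directions differed in the length of their loci, which the rule did not use. The implied length, the smallest whole length that the steps in the values allow, had a median of 2317 bases at the 110 loci and 930 bases at the 23, against 1491 bases over the 14203 loci. Of the 110, 60 (54.5%) were among the longest 25% of loci. Of the 23, 0 were among the longest 25% and 14 (60.9%) among the shortest 25%. Loci with an interaction of the same size but without opposite salt differences had medians of 2261 bases (at most -1.2) and 1084 bases (at least 1.2). When each library's trend on length was taken out, 66 of the 110 and 8 of the 23 still met the rule, among 89 and 9 loci in all. The part of length in these results beyond that step was not tested.

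By chromosome, 20 of the 110 loci (18.2%) lay on chromosome 2, which held 11.9% of loci past the filter, and 11 (10%) on chromosome 10, which held 4.93%. Chromosome 11 held none of either direction and 4.79% of loci past the filter. IDs that do not end in 00 made up 12.7% of the 110 and 13% of the 23, against 5.32% of loci past the filter. In ID order 5 pairs of the 110 loci were direct neighbours, on chromosomes 2, 5 and 7, and none of the 23. The strand setting of the counting is not given in the sources used here, so reads of neighbours that overlap cannot be told apart, and copies of a gene family may share reads.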

How the data were processed

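RNA-seq values of 12 seed libraries were used. The deposited files hold 1 value for each of 35204 IDs. No header gives the unit, and the authors' values are read as FPKM from their totals and from the steps between low values. Bowtie2 2.2.3, HISAT2 2.1.0, HTSeq 0.6.0 and the build IRGSP-1.0 are listed, per the submitters' processing notes, without roles, and the annotation release is not given in the sources used here. The steps return read totals and an implied length for every ID. Divided by its step, each of the 255815 nonzero values at tested IDs was whole to within 0.003 reads. The recovery was tested on simulated data.

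The 22017 IDs reaching 1 FPKM in 3 or more libraries were tested with limma 3.58.1 (R 4.3.3) on log2(FPKM + 1). The model had 1 mean per group, which leaves 8 residual degrees of freedom, and let the variance follow the mean level. P-values were adjusted by Benjamini-Hochberg over all tested IDs. The fit was also tested on simulated reads. The members and lists were chosen with earlier results of these data known. Loci named by rule were the first 2 of each direction by the smaller of their salt differences, with libraries apart in both genotypes. Others are said to be singled out and were chosen after their values were seen. Planned markers and gene groups could not be used, as none of the 133 IDs was matched to a name. Pandas 2.3.3, numpy 2.4.6 and matplotlib 3.10.9 in Python 3.11.15 were used. Alternatives were other pseudocounts, filters, scalings and thresholds, a replicate block, removal of each library's length trend (medians of 20 bins), voom, and each library left out.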

Additional observations from a re-analysis of the deposited data

Results flagged for a closer look

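The 4 loci named by rule had salt responses of opposite sign in the genotypes, with no overlap of water and salt libraries in either. The difference of the responses, osmft1 minus WT in log2(FPKM + 1), was -2.47 at Os01g0762500, -2.50 at Os10g0400200, 2.16 at Os10g0376900 and 1.97 at Os06g0656300. Opposite signs and libraries apart in both genotypes were conditions for naming these loci. The signs, the missing overlap and the difference are therefore given without a test.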

How the results depend on the processing

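The first direction held 180 loci with a pseudocount of 0.1, 70 with median-ratio scaling, 34 without both osmft1 libraries numbered 1, 22 at a threshold of 0.8, 0 at 1, and 65 at a level of 10 FPKM. The second held 38 with a pseudocount of 0.1, 9 with the length trend taken out, 8 at 0.8 and 1 at 1. With 1 library left out the ranges were 39 to 196 and 13 to 39. Calls on the average genotype difference at the 110 loci ranged from 33 to 70 higher with 1 library left out and numbered 39 with no filter. In these settings 1809, 3152 and 2339 of all tested IDs were called higher, against 2928 in the main fit. At the 23 loci the calls lower in osmft1 ranged from 1 to 4, and numbered 1 with no filter or no variance trend, 5 with either other scaling, and 0 with the length trend taken out or without both osmft1 libraries numbered 1. Over all tested IDs the lower calls numbered 897 with no filter, 1044 with no variance trend, 2025 with median-ratio and 1564 with upper-quartile scaling. They numbered 939 with the length trend taken out and 693 without both osmft1 libraries numbered 1, against 1146 in the main fit. No setting tried gave a call in the opposite direction at the 110 or the 23 loci. Os06g0656300 lost its call with the length trend taken out (-0.38, adjusted p = 0.0505 in limma) and without both osmft1 libraries numbered 1 (-0.40, adjusted p = 0.0713 in limma). Interaction calls ranged from 41 to 106 of 110 and from 9 to 18 of 23 with 1 library left out. They numbered 15 and 8 without both osmft1 libraries numbered 1. The rule fixed the sign and least size of the interaction at these loci. Counts over all tested IDs in these settings are not given, so nothing is read from the interaction calls. In replicates left out, shares with both signs were taken over loci chosen anew in each setting. For the second direction they were 32.3% (replicate 1) and 61.1% (replicate 3) with the length trend taken out. With median-ratio scaling the share was 63.8% (replicate 3). The cause was not tested beyond what each setting changes. Deviations of samples of the same number in different groups had r over 0.1 in 4 of 18 pairs (range -0.19 to 0.24). Other pairs went the opposite way, at -0.19, -0.13 and -0.13. The labels do not say what a shared number stands for, and whether it marks a shared batch was not tested. With the replicate block the calls on the average genotype difference were 64 and 2, and the interaction calls 103 and 21.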
